A study of Mus musculus with 6 samples.

Results

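The antiviral interferon-stimulated genes are 54 genes, taken by symbol from a list that leaves out the guanylate-binding proteins, the immunity-related GTPases (though *Ifi47* is one) and the MHC genes. All 54 symbols were found among the 24346 of the expression tables. Of these, 49 reached 1 FPKM (fragments counted per gene, scaled for gene length and library size) in at least 1 mouse and were tested as part of the 11301 genes that did so. The remaining 5, *Oas2*, *Oasl1*, *Rsad2*, *Ifi44* and *Phf11d*, stayed under 1 FPKM in every mouse.

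RNA-Seq was performed on EGFP+ cells sorted from the calvarial bone marrow of CX3CR1-EGFP knock-in mice, in which the fluorescent protein marks monocytoid osteoclast precursors. All 6 mice received lipopolysaccharide (LPS, 20 mg/kg) at the calvarial periosteum. The JAK inhibitor group (3 mice) was given ABT-317, a JAK1-selective inhibitor, by mouth at 60 mg/kg 2 times a day for 5 days, and the vehicle group (3 mice) was given vehicle on the same schedule. The comparison asks which transcripts differ in osteoclast precursors of inflamed bone when JAK signaling is blocked. No mouse without LPS is part of the comparison, and the age of the mice used for RNA-Seq was not given in the sources used here. The reporter is expressed by any CX3CR1+ cell, so the sort does not hold osteoclast precursors alone.

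Interferons act through paired receptor chains whose cytoplasmic ends carry Janus kinases. For type I interferons, JAK1 and TYK2 phosphorylate STAT factors, which join IRF9 in the complex ISGF3 and bind the interferon-stimulated response element (ISRE) in front of target genes. Interferon gamma acts through JAK1 and JAK2, and the response is read at the gamma-activated sequence (GAS). The target genes encode sensors of viral nucleic acid, enzymes that degrade or modify RNA, proteins that block viral entry or release, and the transcription factors that sustain the response. Myeloid cells express many of them at a low level without infection.

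The libraries were alike in extent. The FPKM of all genes summed to between 688372 and 775790 per mouse, and 10361 to 10439 genes reached 1 FPKM. The depth in reads cannot be read from these values. Monocyte markers were high in every mouse: *Csf1r* lay between 355 and 422 FPKM and *Ccr2* between 156 and 200 FPKM. Neutrophil markers were present too, summing to 16960 to 22880 FPKM over 9 genes in vehicle-treated mice and 17160 to 24340 FPKM in JAK inhibitor-treated mice, with *S100a8* as a large part of the sum. The 7 B cell markers found summed to 28.3 to 35.7 FPKM over all mice, nearly all of it *Cd79b*, with *Ms4a1*, *Pax5* and *Ebf1* at 0 in every mouse. Vehicle-treated mouse 3 stood furthest from its group, with a mean correlation of 0.974 with its group mates (0.979 or more in the other 5 mice), and the main counts are also given without it.

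*Oas1a*, which encodes a synthase of the 2'-5' oligoadenylates that activate RNase L, fell in the JAK inhibitor group and was the only member that passed the test across all genes (log2 fold change -1.29, SE 0.18, limma adjusted p = 0.036). The adjusted threshold called 0.0973% of all tested genes lower and 0.0354% higher. At an unadjusted p under 0.05, 15 of the 49 members were lower in the JAK inhibitor group (30.6%) and 1, *Dtx3l*, was higher, whereas 9.4% of all tested genes were lower and 6.57% higher. In 13 members all 3 JAK inhibitor-treated mice lay below all 3 vehicle-treated mice, against 12.1% of all tested genes, and in 1 they lay above, against 9.92%. The difference was modest for most members. Only *Lgals3bp*, *Rtp4*, *Ifitm1* and *Oas1a* were lower by more than 1 on the log2 scale, which 1.6% of all tested genes were, and no member was higher by that much (0.911% of all tested genes). The median log2 fold change of the 49 members was -0.20, with 38 below 0, beside a median of -0.0035 and 50.6% below 0 for all tested genes.

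Some members entered the test through 1 group alone. *Ifit1*, *Ifit3*, *Oas1g*, *Oas3* and *Rtp4* reached 1 FPKM in vehicle-treated mice only, and *Mx2* in a JAK inhibitor-treated mouse only. Among the 43 members that reached 1 FPKM in each group, 11 were lower and 1 higher at an unadjusted p under 0.05, against 9.3% and 6.65% of the 10567 genes chosen in that way, and their median was -0.17. Without vehicle-treated mouse 3, 5 members passed the adjusted threshold (*Ifi27l2a*, *Ifitm1*, *Lgals3bp*, *Oas1a* and *Rtp4*), while 94 of all genes did. At an unadjusted p under 0.05, 18 members were lower and 0 higher (8.12% and 5.39% of all genes tested in that fit), 22 members had separate groups below vehicle (16.8% of all genes) and 1 above (14.0%), and the median was -0.24. *Oas1a* had a log2 fold change of -1.205 (SE 0.20, limma adjusted p = 0.0287) without that mouse. In limma 0 members passed the adjusted threshold when vehicle-treated mouse 1 or any JAK inhibitor-treated mouse was left out, while 11 to 13 had an unadjusted p under 0.05. Of these, 11 or 12 were lower, beside 7.2% to 8.39% of all genes. In bulk RNA a smaller number of cells of a type and less RNA per cell cannot be told apart.

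**Figure D1:**
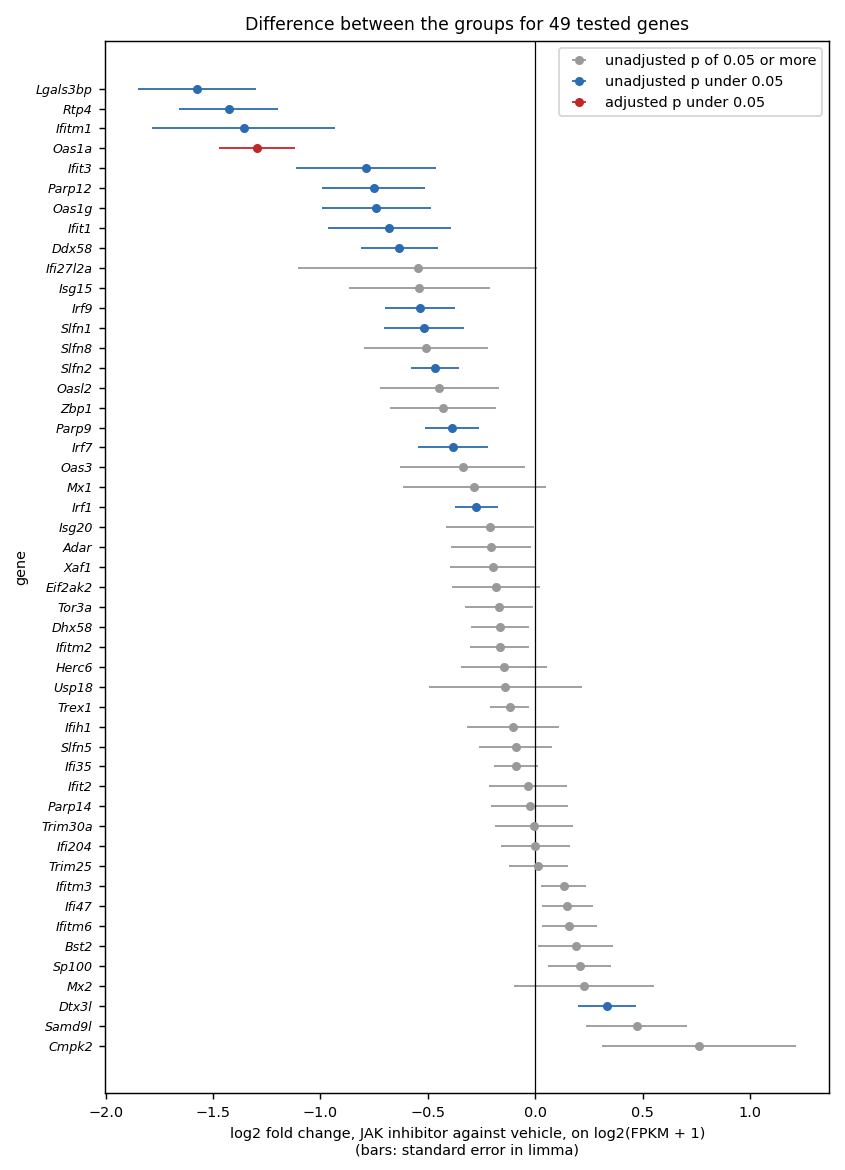
Log2 fold change of the 49 tested members (JAK inhibitor against vehicle, on log2(FPKM + 1), horizontal axis) with its standard error, ordered from lowest to highest. *Oas1a* is drawn as past the adjusted threshold, 14 members are below 0 and *Dtx3l* above 0 at an unadjusted p under 0.05, and the other 33 are drawn in gray.

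Promoter sequences from RefSeq (GRCm38.p6, 250 bases before to 50 after a start) matched 42 of the 54 members. The ISRE core (GAAA, any 2 bases, GAAA, on either strand) lay in a window of 16 of these 42 genes (38.1%), and in 3.99% of the 27025 genes of the whole table. In 12 genes a core lay before the start, and in *Ddx58*, *Eif2ak2*, *Ifih1* and *Ifitm3* after it alone. The GAS core (TTC, any 3 bases, GAA) lay in windows of 10 members (23.8%), and of 9.55% of all genes. An ISRE core lay in 5 of the 13 members with a window that were lower at an unadjusted p under 0.05 (38.5%) and in 10 of the 25 other tested members (40.0%). For GAS the counts were 2 of 13 (15.4%) and 8 of 25 (32.0%). The following 5 stretches show ISRE cores of genes whose levels behaved differently. *Ifit1* and *Ifit3* were low and lower in the JAK inhibitor group at an unadjusted p, *Isg15* was low and did not pass it, and *Bst2* and *Ifitm2* were abundant with overlapping groups. Capitals mark the fixed bases of each core, and TTTC is the same motif read on the other strand.
Isg15, chr4:156200855-156200916, minus strand: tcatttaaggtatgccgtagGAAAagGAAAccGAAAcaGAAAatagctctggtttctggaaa
Ifit1, chr19:34640765-34640833, plus strand: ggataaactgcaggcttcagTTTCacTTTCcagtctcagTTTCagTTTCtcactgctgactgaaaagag
Ifit3, chr19:34583353-34583436, plus strand: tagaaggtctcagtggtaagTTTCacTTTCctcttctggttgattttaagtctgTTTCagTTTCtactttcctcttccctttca
Bst2, chr8:71537567-71537622, minus strand: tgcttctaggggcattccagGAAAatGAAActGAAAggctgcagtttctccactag
Ifitm2, chr7:140955978-140956027, minus strand: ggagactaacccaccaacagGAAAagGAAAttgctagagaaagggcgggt
The *Isg15* stretch holds 3 overlapping cores and the *Bst2* stretch 2 overlapping cores, while *Ifit1* and *Ifit3* have 2 separate cores each. *Ifitm2*, with the highest level of all members, has 1 core in this stretch.

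The 3 transcription factors were all lower in the JAK inhibitor group at an unadjusted p under 0.05 (9.4% of all tested genes), and none passed the adjusted threshold. *Irf9*, the DNA-binding part of ISGF3, was at 18.3, 24.8 and 17.6 FPKM in vehicle-treated mice 1, 2 and 3 and at 15.8, 12.0 and 12.9 FPKM in JAK inhibitor-treated mice 1, 2 and 3. The groups did not overlap, and the log2 fold change was -0.54 (SE 0.16, limma adjusted p = 0.172). *Irf1*, a factor induced by interferon gamma, was the most abundant of the group, at 55.7, 51.8 and 56.9 FPKM with vehicle and 45, 41.8 and 48.8 FPKM with JAK inhibitor. Its groups were separate with a small difference (log2 fold change -0.27, SE 0.10, adjusted p = 0.225). *Irf7*, which amplifies type I interferon production, was at 16.3, 15.4 and 11.8 FPKM with vehicle and at 11.8, 11.8 and 9.04 FPKM with JAK inhibitor. Here the groups overlapped at vehicle-treated mouse 3, and the log2 fold change was -0.38 (SE 0.16, adjusted p = 0.299).

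Of the 8 sensors and kinases, 1 was lower at an unadjusted p under 0.05 (12.5%, near the 9.4% of all tested genes). *Ddx58*, which encodes the RNA sensor RIG-I, was tight in the vehicle group at 3.58, 3.32 and 3.44 FPKM and lay at 1.5, 1.93 and 2.22 FPKM in the JAK inhibitor group. No JAK inhibitor-treated mouse reached the lowest vehicle-treated mouse (log2 fold change -0.63, SE 0.18, limma adjusted p = 0.157). *Dhx58*, the related helicase LGP2 without signaling domains, also had separate groups, but only just. It was at 11, 10.4 and 10.6 FPKM with vehicle and 10.1, 10.1 and 8.09 FPKM with JAK inhibitor (log2 fold change -0.17, SE 0.14, limma adjusted p = 0.59). The third helicase of the family, *Ifih1* (MDA5), overlapped between the groups at 1.84 to 3.44 FPKM over all 6 mice, with a log2 fold change of -0.10 (SE 0.21).

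The most abundant gene of this role was *Trex1*, the exonuclease that removes cytosolic DNA, at 199.8, 187 and 186 FPKM with vehicle and 194, 167 and 168 FPKM with JAK inhibitor. Its groups overlapped (log2 fold change -0.12, SE 0.09), and 93.4% of its 75-base stretches are also in transcripts of *Atrip*, so its reads could be assigned to either gene. *Zbp1* (a sensor of Z-form nucleic acid), *Ifi204* (a DNA sensor), *Eif2ak2* (the kinase PKR) and *Adar* (an RNA-editing enzyme) overlapped too. Their log2 fold changes ranged from -0.43 for *Zbp1* to 0.001 for *Ifi204*, and none had an unadjusted p under 0.05.

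Of the 4 tested OAS genes, 2 were lower at an unadjusted p under 0.05, and *Oas1a* had the smallest p of all members. *Oas1a* was at 8.31, 9.02 and 10.6 FPKM in vehicle-treated mice and at 3.02, 4.04 and 2.63 FPKM in JAK inhibitor-treated mice. Every JAK inhibitor-treated mouse was below the lowest vehicle-treated mouse by a wide margin, and the fold difference was 2.45 on the log2(FPKM + 1) scale. *Oas1g*, a neighboring copy of the same enzyme, was near the lower limit at 1.23, 1 and 0.922 FPKM with vehicle and 0.15, 0 and 0.6 FPKM with JAK inhibitor. The groups were separate (log2 fold change -0.74, SE 0.25, limma adjusted p = 0.211). The transcripts of both genes share 862 stretches of 75 bases, 47.6% of those of *Oas1a* and 36.9% of those of *Oas1g*, so the reads of one may have been counted for the other.

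The RefSeq promoter windows of *Oas1a* and *Oas1g* are 88.8% identical over the bases that align. Both stretches of 250 bases are shown because *Oas1a* carries the one adjusted call and both end in the same pair of overlapping ISRE cores, directly before the start. Capitals mark the fixed bases of ISRE and GAS cores, and *Oas1a* alone holds a GAS core.
Oas1a, chr5:120907526-120907775, minus strand: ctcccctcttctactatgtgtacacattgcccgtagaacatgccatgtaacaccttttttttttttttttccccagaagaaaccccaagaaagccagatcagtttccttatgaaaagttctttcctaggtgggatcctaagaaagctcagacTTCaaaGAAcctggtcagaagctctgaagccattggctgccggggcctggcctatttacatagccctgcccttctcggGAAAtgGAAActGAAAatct
Oas1g, chr5:120887614-120887863, minus strand: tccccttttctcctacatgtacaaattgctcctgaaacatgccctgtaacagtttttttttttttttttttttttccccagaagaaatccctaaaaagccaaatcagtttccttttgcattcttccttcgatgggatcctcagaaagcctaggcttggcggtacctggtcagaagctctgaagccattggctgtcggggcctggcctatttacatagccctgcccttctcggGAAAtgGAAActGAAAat
Of the other family members, *Oasl2* and *Oas3* passed the filter. *Oasl2*, an OAS-like protein, was at 1.02 to 2.74 FPKM with vehicle and 0.735 to 1.56 FPKM with JAK inhibitor, and *Oas3*, which makes long oligoadenylates, stayed between 0.105 and 1.2 FPKM over all mice. Their log2 fold changes were -0.45 (SE 0.28) and -0.34 (SE 0.29), and the groups overlapped. *Oas2* was not tested, with 0.058, 0.671 and 0.709 FPKM with vehicle and 0, 0.006 and 0 FPKM with JAK inhibitor. *Oasl1* was at 0.204 to 0.714 FPKM.

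**Figure D2:**
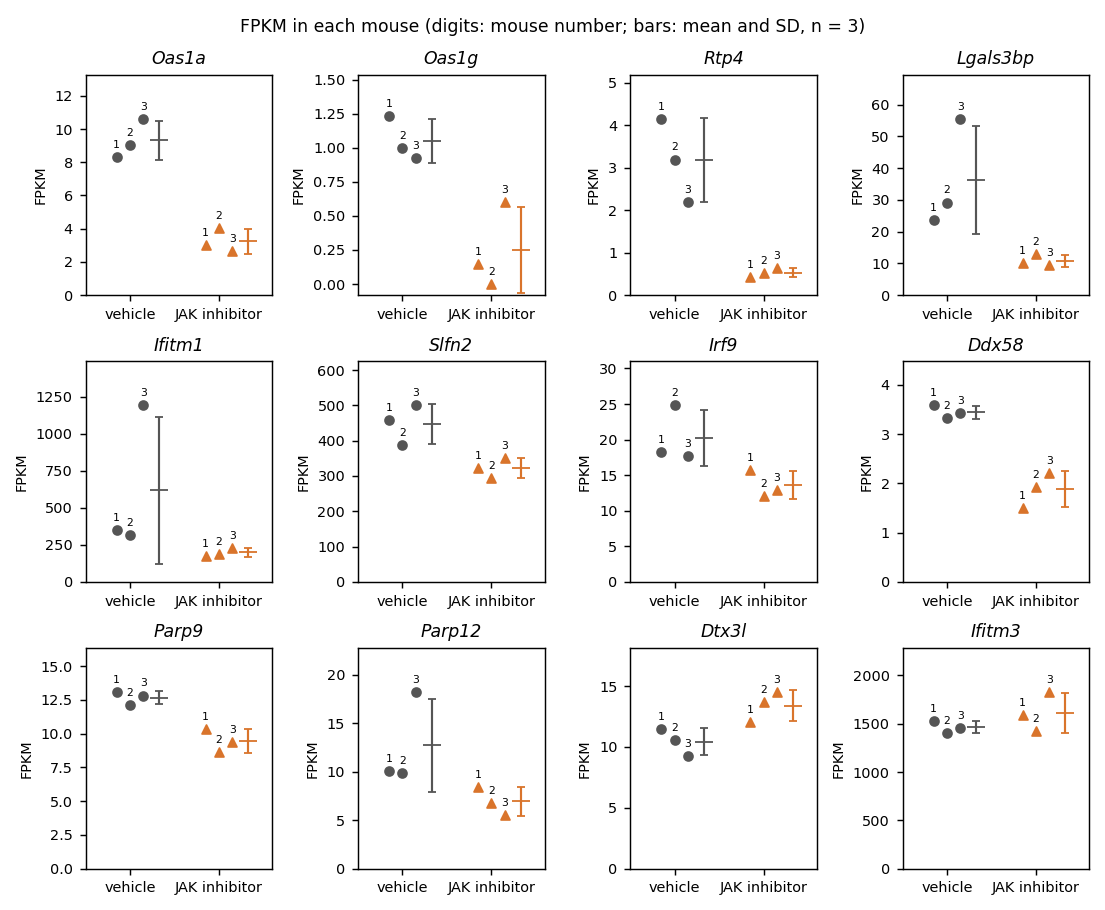
FPKM of 12 members in each mouse (points with the mouse number) with the mean and SD of each group (n = 3). *Oas1a*, *Rtp4* and *Lgals3bp* show separate groups, *Ifitm1* is raised by vehicle-treated mouse 3 at 1189.5 FPKM, *Parp9* and *Dtx3l* point in opposite directions, and *Ifitm3* overlaps.

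IFIT1 and its partners bind viral RNA that lacks the cap structure of the host. *Ifit3* was at 1.74, 2.07 and 0.382 FPKM with vehicle and 0.505, 0.303 and 0.154 FPKM with JAK inhibitor. *Ifit1* was at 1.33, 1.43 and 0.605 FPKM with vehicle and 0.299, 0.698 and 0 FPKM with JAK inhibitor. Both were lower at an unadjusted p (log2 fold changes -0.79, SE 0.33, and -0.68, SE 0.29, limma adjusted p = 0.284 and 0.292), yet both overlapped, because vehicle-treated mouse 3 lay in the range of the JAK inhibitor group. Of the 75-base stretches of *Ifit3*, 41.1% are shared, mainly with *Ifit3b*. *Ifit2*, the most abundant of the family, was at 2.77, 3.59 and 2.44 FPKM with vehicle and 2.99, 2.77 and 2.69 FPKM with JAK inhibitor. Its groups overlapped (log2 fold change -0.03, SE 0.18).

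The Mx GTPases trap viral ribonucleoproteins. *Mx1* was at 2.67, 2.07 and 0.607 FPKM with vehicle and 1.78, 1.11 and 0.713 FPKM with JAK inhibitor, so that both groups covered much the same range (log2 fold change -0.28, SE 0.33). *Mx2* stayed between 0.010 and 1.18 FPKM, with a log2 fold change of 0.23 (SE 0.33).

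The membrane restriction factors included the most abundant members, and 1 of the 5 was lower at an unadjusted p under 0.05. *Ifitm1*, which blocks fusion of viruses at the cell surface, was at 347, 315 and 1189.5 FPKM with vehicle and 174, 190.5 and 231 FPKM with JAK inhibitor. The groups were separate, and vehicle-treated mouse 3 was far above its group mates. The log2 fold change was -1.36 (SE 0.43, limma adjusted p = 0.185) with that mouse and -0.74 (SE 0.12, adjusted p = 0.0278) without it. *Ifitm2* was at 2447, 2038 and 2789.9 FPKM with vehicle and 2444, 1892 and 2138 FPKM with JAK inhibitor. *Ifitm3*, which acts in endosomes, was at 1527, 1405 and 1453 FPKM with vehicle and 1585, 1421 and 1823 FPKM with JAK inhibitor. In both the groups overlapped, with log2 fold changes of -0.16 (SE 0.14) and 0.13 (SE 0.11).

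*Ifitm1*, *Ifitm2*, *Ifitm3* and *Ifitm6* lie in 1 cluster on chromosome 7 (GRCm38). The FPKM of *Ifitm1* relative to *Ifitm3* was 0.227, 0.224 and 0.819 in vehicle-treated mice and 0.110, 0.134 and 0.127 in JAK inhibitor-treated mice. This ratio was chosen after the values were seen and was not tested. *Ifitm6* was at 221 to 276 FPKM with vehicle and 234 to 310 FPKM with JAK inhibitor (log2 fold change 0.16, SE 0.13). *Bst2*, or tetherin, which holds budding virions at the membrane, was at 35.0 to 55.7 FPKM with vehicle and 51.4 to 59.5 FPKM with JAK inhibitor (log2 fold change 0.19, SE 0.17). Of the 75-base stretches of *Ifitm2*, 42.0% occur in other transcripts.

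The ISG15 system attaches the ubiquitin-like ISG15 to proteins and removes it, and none of its 4 genes passed an unadjusted p of 0.05. *Isg15* itself was at 3.12, 2.5 and 0.957 FPKM with vehicle and 1.95, 0.795 and 0.733 FPKM with JAK inhibitor (log2 fold change -0.54, SE 0.33, limma adjusted p = 0.467). Vehicle-treated mouse 3 lay below JAK inhibitor-treated mouse 1. *Usp18*, which removes ISG15 and also dampens the interferon receptor, was also lowest of the vehicle group in mouse 3, at 2.83, 1.38 and 0.452 FPKM with vehicle and 1.85, 0.832 and 0.899 FPKM with JAK inhibitor (log2 fold change -0.14, SE 0.36). *Herc6*, the ligase for ISG15 in mice, had a log2 fold change of -0.15 (SE 0.20). *Trim25*, a ligase that activates RIG-I and the most abundant of the 4, was at 13, 10.6 and 10.3 FPKM with vehicle and 11.4, 10.6 and 12.2 FPKM with JAK inhibitor, and its log2 fold change was 0.01 (SE 0.14).

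Among enzymes that act on nucleotides and RNA, *Cmpk2*, a mitochondrial nucleotide kinase, was at 10.7, 13.5 and 2.41 FPKM with vehicle and 14.0, 13.1 and 12.5 FPKM with JAK inhibitor. A single low vehicle-treated mouse set its log2 fold change of 0.76 (SE 0.45), which was 0.12 (SE 0.15) without that mouse. *Isg20*, a 3' exonuclease, overlapped between the groups at 5.59 to 10.6 FPKM (log2 fold change -0.21, SE 0.21). *Rsad2* (viperin), which makes a chain-terminating nucleotide, stayed at or under 0.568 FPKM and was not tested.

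The PARP9 and DTX3L proteins form a complex that joins ADP-ribosylation to ubiquitin ligation, and their genes lay on opposite sides of 0, each at an unadjusted p under 0.05. *Parp9* was at 13.1, 12.1 and 12.8 FPKM with vehicle and 10.4, 8.62 and 9.39 FPKM with JAK inhibitor (log2 fold change -0.39, SE 0.13, limma adjusted p = 0.192). *Dtx3l* was at 11.4, 10.6 and 9.24 FPKM with vehicle and 12.0, 13.7 and 14.5 FPKM with JAK inhibitor (log2 fold change 0.34, SE 0.14, limma adjusted p = 0.273). Neither pair of groups overlapped. The FPKM ratio of *Dtx3l* to *Parp9* was 0.876, 0.870 and 0.720 in vehicle-treated mice and 1.16, 1.59 and 1.54 in JAK inhibitor-treated mice, a ratio chosen after the values were seen and not tested. *Dtx3l* passed an unadjusted p of 0.05 neither without vehicle-treated mouse 3 (log2 fold change 0.26, SE 0.14) nor without vehicle-treated mouse 2 or JAK inhibitor-treated mouse 2 or 3.

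In GENCODE M21 (GRCm38), *Parp9* (chr16:35938470-35972605, plus strand) and *Dtx3l* (chr16:35926511-35939151, minus strand) run in opposite directions from starts 681 bases apart, and they overlap over that distance. Whether reads were counted by strand was not given in the sources used here, so reads in the overlap cannot be told apart. *Parp12*, a mono-ADP-ribosyltransferase, was at 10.1, 9.87 and 18.2 FPKM with vehicle and 8.48, 6.77 and 5.57 FPKM with JAK inhibitor. The groups were separate, with vehicle-treated mouse 3 far above the rest (log2 fold change -0.75, SE 0.24, limma adjusted p = 0.19, and -0.48, SE 0.18, without it). *Parp14*, another ADP-ribosyltransferase, overlapped at 2.74 to 3.91 FPKM (log2 fold change -0.03, SE 0.18).

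Schlafen proteins restrain growth of immune cells, and some restrict viruses. *Slfn2*, which keeps monocytes and T cells quiescent, was the most abundant at 457, 388 and 499.7 FPKM with vehicle and 323, 295 and 352 FPKM with JAK inhibitor. The groups did not overlap, and with a log2 fold change of -0.47 (SE 0.11, limma adjusted p = 0.12) it had the smallest p of the members after *Oas1a*, *Rtp4* and *Lgals3bp*. *Slfn1* was at 12.5, 10.1 and 17.4 FPKM with vehicle and 8.97, 8.98 and 8.40 FPKM with JAK inhibitor (log2 fold change -0.52, SE 0.18, adjusted p = 0.222). The JAK inhibitor group was tight, and without vehicle-treated mouse 3 the log2 fold change was -0.32 (SE 0.15) and no longer passed an unadjusted p of 0.05. *Slfn8* and *Slfn5* overlapped between the groups, with log2 fold changes of -0.51 (SE 0.29) and -0.09 (SE 0.17). *Samd9l*, a related antiviral factor, was at 4.71 to 9.04 FPKM with vehicle and 7.33 to 11.2 FPKM with JAK inhibitor (log2 fold change 0.47, SE 0.23, limma adjusted p = 0.368).

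Of the remaining 11 members, 2 were lower by more than 1 on the log2 scale (1.6% of all tested genes). *Rtp4*, a receptor transport protein induced by interferon, was at 4.16, 3.19 and 2.2 FPKM with vehicle and 0.424, 0.521 and 0.642 FPKM with JAK inhibitor. No JAK inhibitor-treated mouse came near the lowest vehicle-treated mouse, and the log2 fold change was -1.43 (SE 0.23, limma adjusted p = 0.0665). Of its 75-base stretches, 10.5% occur in an overlapping transcript, *Gm45338*. *Lgals3bp*, a secreted glycoprotein that binds galectins, was at 23.8, 29.1 and 55.6 FPKM with vehicle and 10.1, 12.8 and 9.39 FPKM with JAK inhibitor. Its groups were well apart, with a log2 fold change of -1.57 (SE 0.27, adjusted p = 0.0781). Without vehicle-treated mouse 3, both passed the adjusted threshold, at log2 fold changes of -1.61 and -1.22 (limma adjusted p = 0.0208 and 0.0122).

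*Ifi27l2a*, a small interferon-induced membrane protein, varied most within a group, at 47.7, 38.1 and 7.97 FPKM with vehicle and 13.9, 13.1 and 25.1 FPKM with JAK inhibitor. With all mice the log2 fold change was -0.55 (SE 0.56, limma adjusted p = 0.679). Without vehicle-treated mouse 3 it was -1.31 (SE 0.24, adjusted p = 0.0466), so this mouse decided the call. *Sp100*, a component of nuclear bodies and the most abundant of these 11 genes, was at 52.6, 48.3 and 36.0 FPKM with vehicle and 56.1, 47.5 and 53.4 FPKM with JAK inhibitor, with overlap. *Ifi35*, *Ifi47*, *Tor3a*, *Trim30a* and *Xaf1* overlapped as well, with log2 fold changes from -0.20 for *Xaf1* to 0.15 for *Ifi47*. The untested *Ifi44* was listed at 0 in 5 mice and at 0.105 FPKM in 1, and *Phf11d* was at 0.361 to 0.8 FPKM.

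**Figure D3:**
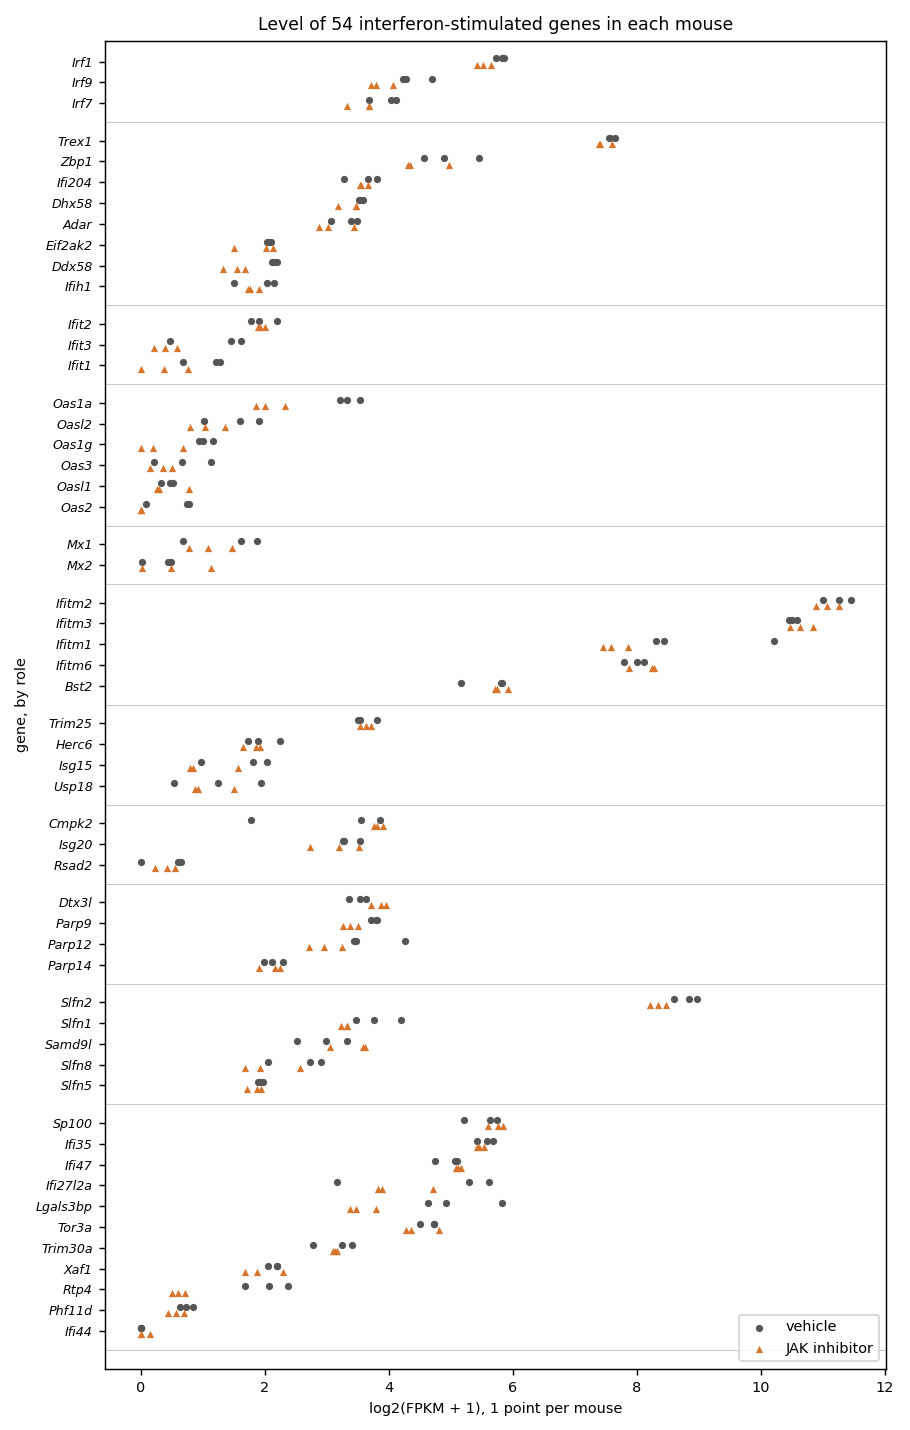
Level of all 54 members, as log2(FPKM + 1), in each of the 6 mice, grouped by role (dots for vehicle, triangles for JAK inhibitor). *Ifitm2* and *Ifitm3* stand at the right with overlapping groups, *Oas1a*, *Rtp4* and *Slfn2* show separate groups at different levels, and *Ifi44*, *Rsad2* and *Oas2* lie near 0.

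The vehicle-treated mice were not alike in these genes. Vehicle-treated mouse 3 had at most 1/2 of the FPKM of each group mate in 8 members (*Ifit1*, *Ifit3*, *Isg15*, *Oasl2*, *Mx1*, *Usp18*, *Cmpk2* and *Ifi27l2a*), which held for 3.55% of all tested genes. In the same mouse *Lgals3bp*, *Ifitm1*, *Parp12*, *Slfn1* and *Oas1a* were at their highest. It was the lowest vehicle-treated mouse for 24 of the 49 tested members (49%) and for 37.8% of all tested genes. Markers of plasmacytoid dendritic cells, which produce type I interferon, were low in the same mouse, though not these markers alone. All 10 of them, *Bst2* included, were lowest in mouse 3 of the vehicle group, and they summed to 352, 419 and 169 FPKM in vehicle-treated mice and 407 to 446 FPKM in JAK inhibitor-treated mice. A large part of the sum was *Irf8*, also an interferon-stimulated gene, at 179.8, 205 and 112 FPKM with vehicle and 236 to 264 FPKM with JAK inhibitor. *Siglech*, more specific to these cells, was at 13.9, 15.4 and 2.18 FPKM with vehicle and 6.17 to 9.62 FPKM with JAK inhibitor. Of the 9 conventional dendritic cell markers, 8 were also lowest in mouse 3 of the vehicle group. They summed to 932, 1069 and 566 FPKM in vehicle-treated mice, and erythroid markers to 26.9, 39.1 and 2.90 FPKM. Other lists differed: 3 of the 9 monocyte markers and 0 of the 8 mature osteoclast markers were lowest in that mouse. The part of any of these cell types in the result was not tested.

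**Figure D4:**
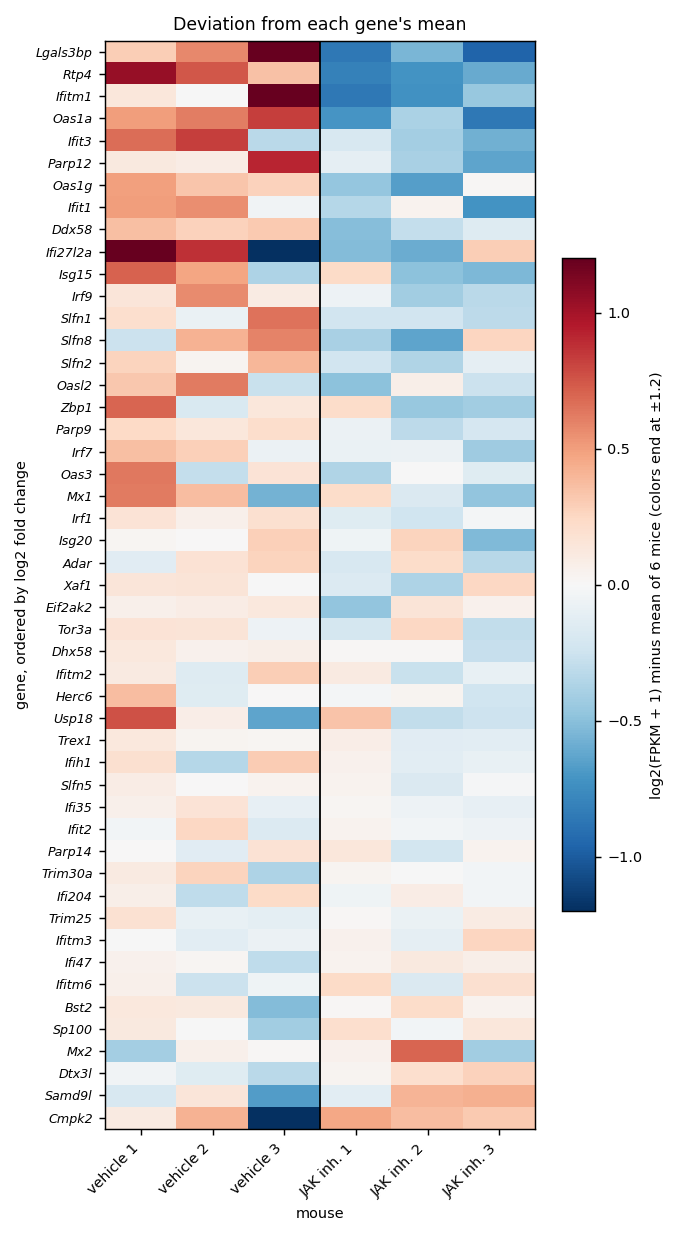
Deviation of log2(FPKM + 1) from the mean of the 6 mice (color, ending at 1.2 in either direction) for the 49 tested members in each mouse, ordered by log2 fold change. Vehicle-treated mouse 3 is above the mean for *Ifitm1* and, like its group mates, for *Lgals3bp* and *Oas1a*, and below it for *Ifi27l2a*, *Isg15*, *Mx1*, *Usp18* and *Cmpk2*, where its group mates are above.

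Markers of other cell types also differed between the groups. The 10 macrophage markers summed to 286 to 460 FPKM with vehicle and 142 to 241 FPKM with JAK inhibitor. Of the 9 tested, 5 were lower at an unadjusted p under 0.05 (9.4% of all tested genes), among them *C1qb* (log2 fold change -1.78) and *C1qa* (-1.66). The 8 mature osteoclast markers summed to 175 to 644 FPKM with vehicle and 117 to 124 FPKM with JAK inhibitor. Of the 7 tested, 6 were lower at an unadjusted p under 0.05 (9.4% of all tested genes), and *Calcr* was at 0 in every mouse. The highest sum was that of vehicle-treated mouse 3, which also had the highest *Lgals3bp* and *Ifitm1*. Of the 9 neutrophil markers, 3 were higher and 1 lower at an unadjusted p under 0.05 (6.57% and 9.4% of all tested genes). The granule genes *Camp* (182 to 289 FPKM with vehicle and 469.6 to 1097 FPKM with JAK inhibitor, log2 fold change 1.64), *Elane* (1.12) and *Mpo* (0.93) were higher, and *Cxcr2* (-0.80) was lower. Of the 7 tested conventional dendritic cell markers, 2 were lower and 1 higher at an unadjusted p under 0.05 (9.4% and 6.57% of all tested genes). The MHC class II genes *H2-Ab1* (log2 fold change -0.76) and *Cd74* (-0.72) were lower, and *Cd209a* (1.16) was higher. Of the 7 tested T and NK cell markers, 1 was higher, *Nkg7* (0.92), and 1 was lower, *Gzma* (-2.09), at that threshold (6.57% and 9.4% of all tested genes). *Nkg7* was at 167 to 557 FPKM over all mice. The listed *Cd3e*, *Cd3d*, *Cd3g*, *Cd4*, *Cd8a*, *Ncr1* and *Klrb1c* reached at most 1.77 FPKM. Erythroid markers summed to 2.90 to 39.1 FPKM with vehicle and 64.8 to 135.5 FPKM with JAK inhibitor. The part of these cell types in the differences of the members was not tested.

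Upstream of the members, no interferon transcript reached a testable level at this depth, which is not known. Of 21 interferon genes, 19, *Ifnb1* and *Ifng* included, were listed at 0 in every mouse, and *Ifnk* and *Ifnz* reached at most 0.221 FPKM. The 6 receptor genes gave 1 lower and 2 higher at an unadjusted p under 0.05 (9.4% and 6.57% of all tested genes), and none passed the adjusted threshold. The type I receptor chain *Ifnar2* was at 160, 162 and 149 FPKM with vehicle and 192, 186 and 195 FPKM with JAK inhibitor (log2 fold change 0.28, SE 0.08, limma adjusted p = 0.157). Its partner *Ifnar1* had a log2 fold change of -0.25 (SE 0.14), with overlap. *Ifngr1*, a receptor chain for interferon gamma, was higher by 0.25 (SE 0.09), and *Ifnlr1*, the receptor chain for lambda interferons, was lower with a log2 fold change of -1.12 (SE 0.34). *Ifnlr1* was at 3.2, 2.9 and 8.8 FPKM with vehicle and 1.5, 1.9 and 1.1 FPKM with JAK inhibitor, with vehicle-treated mouse 3 far above the rest.

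Among the kinases and STAT factors of these receptors, *Stat3* was lower at an unadjusted p under 0.05. This gene, which serves interleukin-6 more than interferon, had a log2 fold change of -0.35 (SE 0.10, limma adjusted p = 0.168). *Jak1* (-0.08, SE 0.11), *Tyk2* (0.04, SE 0.15) and *Stat2* (0.21, SE 0.14) gave the log2 fold changes in parentheses, all at an unadjusted p of 0.05 or more. Of 9 brakes on interferon signaling, 2 were lower at an unadjusted p under 0.05 (9.4% of all tested genes). *Socs3*, a feedback inhibitor induced by STAT3, was at 19.9, 9.48 and 52.3 FPKM with vehicle and 8.30, 7.74 and 9.28 FPKM with JAK inhibitor (log2 fold change -1.27, SE 0.47, adjusted p = 0.238), and *Ptpn1*, a phosphatase acting on JAK2 and TYK2, had a log2 fold change of -0.34 (SE 0.11).

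**Figure D5:**
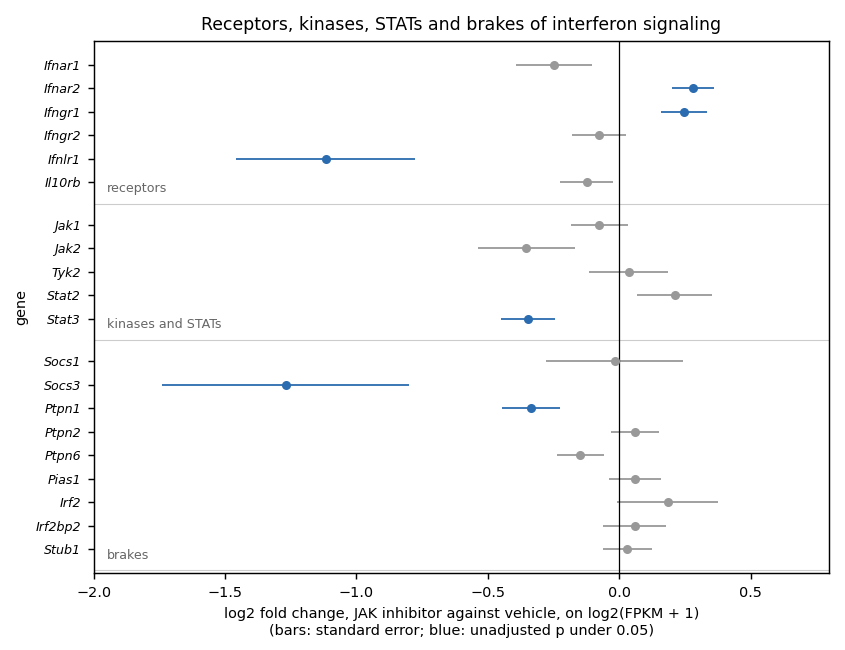
Log2 fold change (JAK inhibitor against vehicle, on log2(FPKM + 1), horizontal axis) with its standard error for receptors, kinases, STAT factors and brakes of interferon signaling. *Ifnlr1* and *Socs3* lie furthest below 0, *Ifnar2* and *Ifngr1* lie above it, and *Jak1*, *Tyk2* and *Stat2* lie near 0.

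Of 12 tested genes that sense microbes or relay the signal toward interferon production, 4 were lower and 2 higher at an unadjusted p under 0.05 (9.4% and 6.57% of all tested genes). The kinase *Ikbke* had the smallest p, at 39.0, 37.0 and 52.6 FPKM with vehicle and 24.4, 25.2 and 24.4 FPKM with JAK inhibitor (log2 fold change -0.76, SE 0.14, limma adjusted p = 0.0877). The adaptors *Mavs* (-0.31, SE 0.10), *Ticam1* (-0.42, SE 0.15) and *Myd88* (-0.34, SE 0.12) were lower too in log2 fold change. The RNA sensor *Tlr7* (0.43, SE 0.14) and *Mb21d1*, the older symbol of the DNA sensor cGAS (0.59, SE 0.20), were higher.

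The response of the members was set beside 2 related lists. Of 45 further interferon-stimulated genes that were tested, 4 were lower (8.89%) and 3 higher at an unadjusted p under 0.05, near the 9.4% and 6.57% of all tested genes, with a median log2 fold change of -0.02. The lower ones were the Fc receptor *Fcgr1* (-1.15), *Ifi27* (-0.62), the lysosomal reductase *Ifi30* (-0.45) and the cytidine deaminase *Apobec3* (-0.38), and the higher ones were *Irf8* (0.64), *Ifi203* (0.59) and *Pyhin1* (0.41), in log2 fold change. The other list held 18 genes, the interferon gamma-induced GTPases and *AW112010*. Of these, 9 were tested, with a median of -0.40. At an unadjusted p under 0.05, 4 were lower, *AW112010* included (44.4%, beside 9.4% of all tested genes), and 0 higher (beside 6.57%). *Gbp3* was the 1 tested gene of this list with a log2 fold change above 0 (0.23, SE 0.11), and its groups did not overlap. *AW112010* passed the adjusted threshold, at 473, 285 and 655 FPKM with vehicle and 116, 90.3 and 122 FPKM with JAK inhibitor (log2 fold change -2.03, SE 0.26, limma adjusted p = 0.0324), and *Gbp2*, *Irgm1* and *Igtp* had log2 fold changes of -0.83, -0.40 and -0.52.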

How the data were processed

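RNA-Seq was single-end with 75-base reads. Per the labels, the libraries were made with SMART-Seq HT and Nextera, whereas the study's methods name a stranded TruSeq kit. The values deposited by the authors are FPKM, in a separate table for each mouse. The submitters' processing notes name TopHat2 2.0.13, Bowtie2 2.2.3, SAMtools 0.1.19, Cufflinks 2.2.1 and mm10. How multiply mapped reads were counted was not given in the sources used here. FPKM holds no read counts, so depth and counting error are unknown. Multiples of single reads could not be recovered from low values (at most 69 genes shared a ratio bin between any pair of mice), and no pair of mice shared more than 4 identical values at 1 FPKM or more.

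Genes with an FPKM of 1 or more in any mouse were compared on log2(FPKM + 1), which understates the change of low genes, with limma 3.58.1 in R 4.3.3 (2-group model, empirical Bayes with trend, Benjamini-Hochberg over 11301 genes). P-values set the difference between 3 and 3 mice against the spread within groups, estimated in part from all tested genes. An exact 2-sided permutation test of 3 against 3 values cannot go below 0.1, the value of every member with separate groups. A simulation for this comparison held 11301 genes, with noise drawn independently for each gene and mouse. It gave a change of -1.5 on the log2 scale to 200 genes, all with a mean log2(FPKM + 1) above 2. It found 95.0% of these 200, and 5.47% of its calls were false. Only *Lgals3bp* among the tested members had a log2 fold change beyond that size (-1.574), and the median of the members was -0.20. Smaller changes, and changes in genes as low as *Rtp4* or *Ifit1*, were not simulated. These rates therefore cannot show how many changed members the test would miss. The members and lists were chosen with earlier results of these data known. Values in every mouse are given for members with an unadjusted p under 0.05 or separate groups and the most abundant of each role. They are also given for further genes where a result turns on them. Of the pathway lists, up to 5 genes with the smallest p are named, most by log2 fold change alone. A result on 1 pathway gene is not reported here. Shared 75-base stretches were searched in GENCODE M21 transcripts. Promoters are those of RefSeq on GRCm38.p6. *Oas2*, *Mx1*, *Mx2*, *Usp18*, *Dhx58*, *Zbp1*, *Parp9*, *Parp14*, *Rtp4*, *Ifi204*, *Ifi27l2a* and *Tor3a* had no entry. Python 3.11.15 with pandas 2.3.3 and matplotlib 3.10.9 was used. Alternatives were a pseudocount of 0.1, other filters and scalings, no trend, library weights, a replicate block and leaving out each mouse.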

Additional observations from a re-analysis of the deposited data

How the results depend on the processing

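The call of *Oas1a* depended on the processing. At an adjusted p under 0.05, 1 member and 15 of all genes were called. With no filter on low values and without the trend, 0 members and 2 of all genes were called in limma. At an unadjusted p under 0.05, 16 and 15 members passed. Of all genes, 7.2% and 8.19% were lower and 5.21% and 6.57% higher. With a filter of 1 FPKM in 3 mice, 2 members (*Oas1a* and *Rtp4*) and 34 of all genes were called, and with library weights 3 members (also *Lgals3bp*) and 63. *Rtp4* reached 1 FPKM in vehicle-treated mice alone, so it passed either filter only through the group where it was higher. With each mouse left out in turn, 0 to 5 members and 3 to 95 of all genes were called, members with separate groups numbered 16 to 23, and the median log2 fold change of the members ran from -0.287 to -0.116. Leaving out JAK inhibitor-treated mouse 2 gave -0.287, and mouse 3 gave -0.116. Without vehicle-treated mouse 3, 16.8% of all genes had separate groups below vehicle and 14.0% above. The shares without each other mouse are not given here. Separate groups are easier to reach with fewer mice, and the cause of the other shifts was not tested. The count at an unadjusted p, 16 members, ran from 11 to 19 over all alternatives run. Of all genes, 7.2% to 9.78% were lower and 4.59% to 7.86% higher at that threshold. Deviations of same-numbered mice had correlations of 0.0158, 0.0542 and -0.000164, and not every mouse correlated best with its own number. With 3 mice in a group, these values cannot decide whether the numbers pair the mice, and the sources used here name no pairing. With the replicate number as a block, 67 of all genes and 1 member were called, and 16 members had an unadjusted p under 0.05. The 17 members named for their p or separate groups gave 235 values under the alternatives, of which 32 lost an unadjusted p under 0.05. That 0 changed sign was largely fixed in advance. Of the 17, 14 had separate groups, and leaving out a mouse cannot change the sign of such a member. The restriction to genes at 1 FPKM or more in each group was chosen after seeing the data. Without read counts, differences among members under 1 FPKM are limited by an unknown depth.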

Other observations

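The spread within groups was wider for the members than for genes at large. The median SD on the log2 scale was 0.257 over the tested members in the vehicle group and 0.185 in the JAK inhibitor group, beside 0.183 and 0.152 over all tested genes. At an unadjusted p under 0.05, 7 of the 22 members with a mean of 5 to 50 FPKM were lower, and 3 of the 8 at 50 FPKM or more (*Irf1*, *Ifitm1* and *Slfn2*), beside 9.4% of all tested genes. Of the 5 lower members under 5 FPKM, 4 had passed the filter through the vehicle group alone. *Cxcl10*, a chemokine induced by interferon in many cell types, was at 4.45, 3.08 and 0.508 FPKM with vehicle and 1.93, 4.52 and 1.75 FPKM with JAK inhibitor. It repeated the low value of vehicle-treated mouse 3 and overlapped between the groups (log2 fold change 0.13, SE 0.46, limma adjusted p = 0.918).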
